A study of Mus musculus with 3 samples.

Results

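C1qa, C1qb, C1qc, C3ar1 and C5ar1 were followed through single cell RNA sequencing of mouse microglia. These 5 complement genes were taken by name as rows of the count tables, out of 15635 genes in all, and each of them had a row in every library. They were read in cells with more than 200 and at most 8000 detected genes and at most 10% mitochondrial UMIs (unique molecular identifiers, 1 per captured RNA molecule).

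C1q is the recognition molecule of the classical complement pathway and is built from A, B and C chains, each encoded by its own gene. When it binds a target it starts a protease cascade that cleaves C3 and then C5, and the small fragments C3a and C5a act on the G protein coupled receptors C3ar1 and C5ar1. In the brain, microglia are a major source of C1q, and complement deposition is known for its part in synapse removal.

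The study compared mice carrying the long (hCD33M) or the short (hCD33m) isoform of human CD33, a sialic acid binding receptor of myeloid cells, with control mice labelled wild type. The transgenes sit at Rosa26 behind a floxed stop and are switched on by Cre expressed from the Cx3cr1 locus, a driver active in microglia and other mononuclear phagocytes, so border macrophages and monocytes are not outside its reach. Brains came from animals of 8 weeks, cells of more than 1 mouse were pooled for each genotype, and CD11b+ CD45low Cx3cr1+ cells were sorted before capture. There was 1 library for each of control, hCD33M and hCD33m, so genotype and library cannot be told apart, no difference between genotypes has a replicate check, no p-value is given, and all intervals are 95% intervals for counting error only.

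The 3 libraries held 5920 to 6257 barcodes and 32272657 to 40629705 UMIs, and 5891 control, 5710 hCD33M and 6068 hCD33m cells were kept, with median UMIs per cell of 4303, 4216 and 4881. Between 4 and 10 barcodes were shared by any pair of libraries. The hCD33m library is labelled female and the other 2 male, but the hCD33m library held 0 Xist UMIs and 3854 Ddx3y UMIs, so that label goes against the data. Human CD33 itself was not analysed here, so the genotype labels were not checked against it. Clusters made without complement genes gave 14009 microglia-like cells in 8 clusters (4477 control, 4377 hCD33M and 5155 hCD33m), 218 border associated macrophage-like cells (59, 48 and 111) and 84 monocyte-like cells (20, 23 and 41). All 11 listed microglial markers exceeded 20 CPM (counts per 1000000 UMIs of the same cells) in the microglia-like cells of every library, whereas none of the 8 monocyte markers did. The same 11 also exceeded it in the border and monocyte-like cells of every library, at lower summed levels, so passing 20 CPM does not separate the classes. The remaining 3358 cells, with a median of 899 UMIs, were left unnamed.

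The C1q genes lie side by side on mouse chromosome 4 (build GRCm38, minus strand) in the order C1qb, C1qc, C1qa. C1qb spans chr4:136880129-136886187, C1qc chr4:136889804-136893065 and C1qa chr4:136895917-136898803. Gaps of 3616 bp and 2851 bp separate them, and no other annotated gene falls within the 18675 bp that hold all 3. C3ar1 lies at chr6:122847138-122856161 and C5ar1 at chr7:16246743-16259540, both on the minus strand, and no other annotated gene overlaps any of the 5. The upstream stretches of C1qb (chr4:136886201-136886450) and C1qc (chr4:136893066-136893164) are shown because these neighbouring genes were counted in a nearly fixed proportion in every library. The sequences are from RefSeq (GRCm38.p6), 5′ to 3′ on the gene's strand, with bases inside the gene model left out and a match to the PU.1 core in capitals.
C1qb: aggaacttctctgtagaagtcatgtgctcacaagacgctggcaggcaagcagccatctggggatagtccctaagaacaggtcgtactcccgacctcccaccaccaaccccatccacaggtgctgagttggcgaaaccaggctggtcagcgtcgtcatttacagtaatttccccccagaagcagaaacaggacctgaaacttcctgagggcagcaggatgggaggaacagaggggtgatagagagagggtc
C1qc: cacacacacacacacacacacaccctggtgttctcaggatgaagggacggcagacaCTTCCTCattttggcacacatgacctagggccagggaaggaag
The 250 bases before the RefSeq start were searched on both strands for GAGGAAG, a core bound by the myeloid factor PU.1, and for TGAGTCA, bound by AP-1. C1qc held 1 PU.1 match, 194 bases before its RefSeq start, C3ar1 held 1 AP-1 match 22 bases before its start, and C1qb and C5ar1 held neither. Of 32851 such windows, 10.6% held the PU.1 letters and 4.46% the AP-1 letters, so a match is a description of the letters only. C1qa was not examined in this way.

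C1q transcripts were among the most abundant in these cells and fell in the same order in the 3 libraries for every subunit, highest in control and lowest in hCD33m. C1qa, the A chain, was read at 10977 CPM in control microglia-like cells, against 10494 CPM for hCD33M and 9417 CPM for hCD33m. C1qb, the B chain, was read at 8994, 8256 and 7765 CPM in the same order. C1qc, the C chain, was read at 7336, 6988 and 6663 CPM. Counts of 3′ tags need no scaling for transcript length, although capture can differ between genes. Summed over the subunits, the control level was 27307 CPM (27247 to 27367), that of hCD33M 25738 CPM (25682 to 25795) and that of hCD33m 23845 CPM (23795 to 23896), so the counting intervals did not overlap. These steps were small as ratios. On the log2 scale the summed C1q level differed from control by -0.09 in hCD33M and by -0.20 in hCD33m, which is 0.943-fold and 0.873-fold.

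C3ar1, the receptor for C3a, was read at 253 CPM (247 to 259) in control microglia-like cells, at 224 CPM (219 to 229) in those of hCD33M and at 222 CPM (217 to 227) in those of hCD33m. Both transgenic libraries lay below control, by -0.17 and -0.19 on the log2 scale, and could not be told apart from each other (log2 ratio -0.01, interval -0.06 to 0.03). C5ar1, the receptor for C5a, was read at 109 CPM (105 to 113) in control and 106 CPM (103 to 110) in hCD33M, and at 76.4 CPM (73.6 to 79.3) in hCD33m. The control and hCD33M libraries overlapped (log2 ratio -0.04, interval -0.11 to 0.03), and hCD33m stood below both. Its log2 ratio was -0.51 (-0.59 to -0.44) against control, or 0.700-fold, and -0.48 (-0.55 to -0.40) against hCD33M, the largest difference of any of the 5 genes in each of these contrasts.

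**Figure D1:**
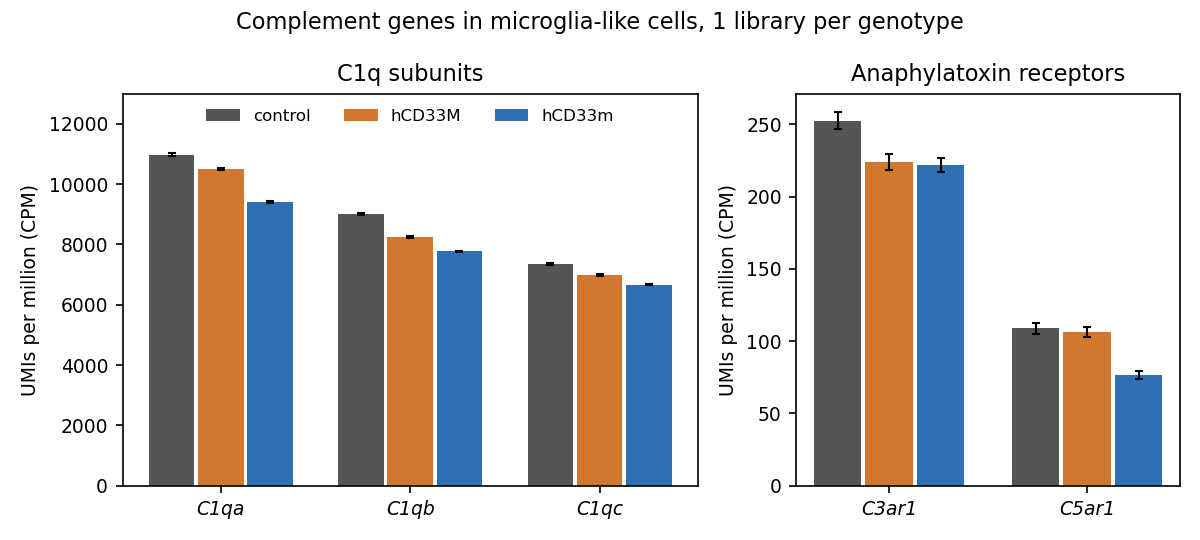
Level of each gene (CPM, vertical axes from 0) in microglia-like cells of the control, hCD33M and hCD33m libraries. Bars are the pooled level of 1 library each and error bars the 95% Poisson interval. The C1q subunits step down from control to hCD33m, and C5ar1 is lower in hCD33m (76.4 CPM) than in the other libraries (109 and 106 CPM).

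A ratio of at least 1.5-fold in either direction, with an interval that excludes no difference and a level of at least 20 CPM in either library, was used as the rule of size. None of the 5 genes passed it in any contrast, and all 5 exceeded the minimum level, so leaving that out changes nothing for them. Among all genes measured, 0.958% passed between hCD33M and control, 1.16% between hCD33m and control, and 0.68% between hCD33m and hCD33M, and with no minimum level 4.99%, 5.98% and 4.48% did. At a ratio of 5 to 4 in either direction, C5ar1 was the only 1 of the 5 to pass, and it did so in both hCD33m contrasts, against 6.27% of genes for hCD33m and control and 3.3% for hCD33m and hCD33M, while none passed between hCD33M and control, where 4.36% of genes did. All 5 ratios were below 0 in every contrast, with medians of -0.07 for hCD33M and control and -0.21 for hCD33m and control, beside medians over all genes of 0.01 and 0.01. The contrasts share libraries, so they are not separate observations. Ranked among 6790 genes, 0.589% had a ratio of hCD33m to control as low as that of C5ar1, and 6.88%, 7.47% and 15.4% had ones as low as those of C1qa, C1qb and C1qc.

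The lower C1q and C5ar1 levels of hCD33m were spread over the microglia-like clusters. Within each of the 8 clusters, summed C1q read lower in hCD33m than in control, by -0.28 to -0.001 on the log2 scale. The smallest step, in the cluster led by Cst7, was within counting error. Control had 35925 CPM (35544 to 36309) there and hCD33m 35889 CPM (35549 to 36230). C5ar1 was lower in 8 of 8 clusters, by -0.99 to -0.48. C3ar1 was also lower in 8 of 8 clusters, whereas C1qc was lower in 6 and higher in 2. Between hCD33M and control, summed C1q was lower in 7 clusters and higher in 1, and C5ar1 was lower in 6 and higher in 2. The clusters hold cells of the same libraries, so they are not separate observations.

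Marker levels, Fos and mitochondrial share also differed between libraries or with C1q, and their part in these differences was not tested. The summed level of the 11 microglial markers was 33324, 32926 and 30703 CPM in control, hCD33M and hCD33m, the same order as C1q, and that of the 8 border macrophage markers 276, 288 and 226 CPM. Fos, an immediate early gene, had a UMI in 925 of the 4477 control microglia-like cells, in 2236 of the 4377 from hCD33M and in 3446 of the 5155 from hCD33m. Among cells with no Fos UMI, summed C1q was 27557, 26514 and 24669 CPM in control, hCD33M and hCD33m, and among cells with a Fos UMI it was 26751, 25371 and 23614 CPM. The order of the libraries for C1q was the same in both sets. The sets also differed in depth, with median UMIs of 4878.5, 4299 and 4505 without a Fos UMI and 6529, 5804 and 5747 with it. C5ar1 was 112, 111 and 73.8 CPM in cells with no Fos UMI and 103, 104 and 77.1 CPM in cells with a Fos UMI. The hCD33m level was the lowest in both sets. C1q was also higher in cells with a higher mitochondrial share. From the lowest to the highest of 4 equal bins of that share it went from 26715 to 28936 CPM in control, from 24937 to 28324 CPM in hCD33M and from 22590 to 26184 CPM in hCD33m.

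The 3 subunits were counted in a nearly fixed proportion. In control microglia-like cells, C1qa made up 40.2% (40.1 to 40.3), C1qb 32.9% and C1qc 26.9% of 796611 C1q UMIs. The shares in hCD33M were 40.8%, 32.1% and 27.2%, and those in hCD33m were 39.5%, 32.6% and 27.9%. The libraries thus differed by little over 1 percentage point at most for any chain, more than counting error but less than the spread over cells. These shares are of RNA molecules captured, and equal amounts of the 3 chains in the protein are not measured by them.

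Nearly every cell carried all 3 chains. A UMI of each was present in 4471 of the 4477 control cells (99.9%), and 3 cells each of hCD33M and hCD33m missed a chain (4374 of 4377 and 5152 of 5155 had all), and no microglia-like cell lacked C1q altogether. The median cell held 141, 129 and 127 C1q UMIs in control, hCD33M and hCD33m. Among the 13828 cells with at least 20 C1q UMIs, the median C1qa share was 40.4% for control, 40.9% for hCD33M and 39.5% for hCD33m. C1qa was the highest of the 3 in 78.3%, 82.0% and 73.3% of cells. Over all these cells the C1qa share had an SD of 5.75 percentage points where counting alone gives 4.83, and its variance, with each cell weighted by its own count, was 1.46 times that of counting. The ratios for C1qb and C1qc were 1.49 and 1.33, so most of the spread in balance between cells was of the size that sampling of molecules gives.

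**Figure D2:**
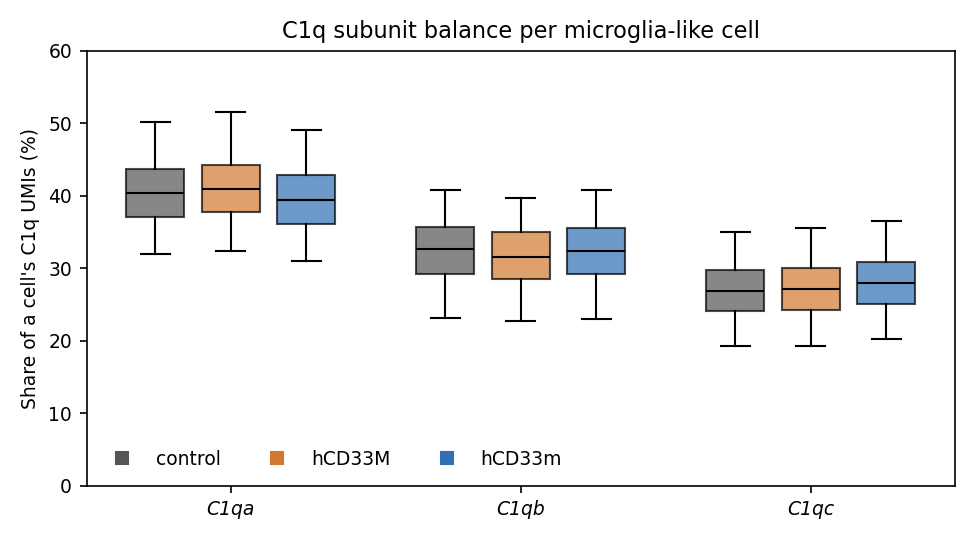
Share of a cell's C1q UMIs (%, vertical axis) taken by C1qa, C1qb and C1qc in microglia-like cells with at least 20 C1q UMIs, by library. Lines are medians, boxes hold the 25th to 75th percentiles and whiskers the 5th to 95th over cells. C1qa is highest in each library (medians 40.4%, 40.9% and 39.5%) and the boxes of the 3 libraries overlap for each chain.

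The balance moved a little between clusters. Pooled over libraries, the C1qa share was 43.0% in a cluster of low UMI count led by Malat1 and mitochondrial genes, and 43.0% in the larger unnamed low-UMI cluster. It was 38.5% in a cluster led by the chemokines Ccl4 and Ccl3, where C1qb reached 34.1%. The other 6 microglia-like clusters lay between 39.6% and 40.6%.

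After each cell was thinned to 1600 UMIs, the median Pearson correlation over the 3 libraries (4227, 4084 and 4956 cells) was 0.37 between C1qa and C1qb, 0.31 between C1qa and C1qc and 0.31 between C1qb and C1qc. Of 3423 genes compared with summed C1q, Cst3 (cystatin C, a secreted protease inhibitor) was the most alike at 0.41, followed by Ctss (cathepsin S) at 0.27, Itm2b at 0.25, Fcer1g at 0.22 and Lyz2 (lysozyme) at 0.21. At the other end stood Malat1, a nuclear RNA, at -0.19 and Mef2a, a transcription factor, at -0.17. In single libraries, the correlations of a C1q gene with a receptor ranged from -0.043 to 0.046, and the median for C3ar1 with C5ar1 was 0.03. The gene most like C3ar1 was Cd63 at 0.085 and the one most like C5ar1 was Cd9 at 0.043, both too weak to be read as a pattern. Cells of a library share its preparation, and counts as sparse as those of the receptors hold correlations near 0.

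At the same depth of 1600 UMIs, a C3ar1 UMI was present in 31.3% (29.9 to 32.7) of the control microglia-like cells, against 28.3% for hCD33M and 28.1% (26.9 to 29.4) for hCD33m. A C5ar1 UMI was present in 16.0% (14.9 to 17.1), 16.1% (14.9 to 17.2) and 10.7% (9.83 to 11.6) of them in the same order. The lower C5ar1 level of hCD33m was thus also a lower share of cells with a UMI. At means of 0.188, 0.181 and 0.122 C5ar1 UMIs per thinned cell, that share largely follows from the level and is not a second observation. Without thinning, the shares were 64.6%, 60.5% and 61.4% for C3ar1 and 39.5%, 42.0% and 32.4% for C5ar1, at median depths of 5109, 4963 and 5210 UMIs. As background, in the monocyte-like cells 6.02% (5 of 83) had a C3ar1 UMI and 7.23% (6 of 83) a C5ar1 UMI after thinning, and 25% and 23.8% before it at a median depth of 9185 UMIs. Cells with both receptors made up 5.20%, 5.29% and 3.17% in control, hCD33M and hCD33m, beside 5.01%, 4.55% and 3.0% if the receptors were drawn independently.

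The receptors differed between microglia-like clusters where C1q differed less. The cluster led by Ccl4 and Ccl3, 184 cells of which 129 were hCD33m, had the highest levels of both. C3ar1 there was 618, 488 and 475 CPM and C5ar1 404, 322 and 204 CPM in control, hCD33M and hCD33m. The cluster led by Cst7 and Vcam1 (473 cells) combined a high C3ar1 level with the lowest C5ar1 level of all. C3ar1 there was 378, 367 and 344 CPM in control, hCD33M and hCD33m, and C5ar1 was 73.1, 50.1 and 49.6 CPM. That cluster also had the most C1q, at 36354 CPM over the libraries, while the other 7 clusters lay between 23460 and 28735 CPM. The clusters were made from the same cells, so these values describe them and are no test. A single hCD33M cell of the Cst7 cluster held 7211 of that cluster's 7212 UMIs of the 4 erythroid markers (7854 CPM of the 148 hCD33M cells), and the control and hCD33m cells of the cluster held 0.

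**Figure D3:**
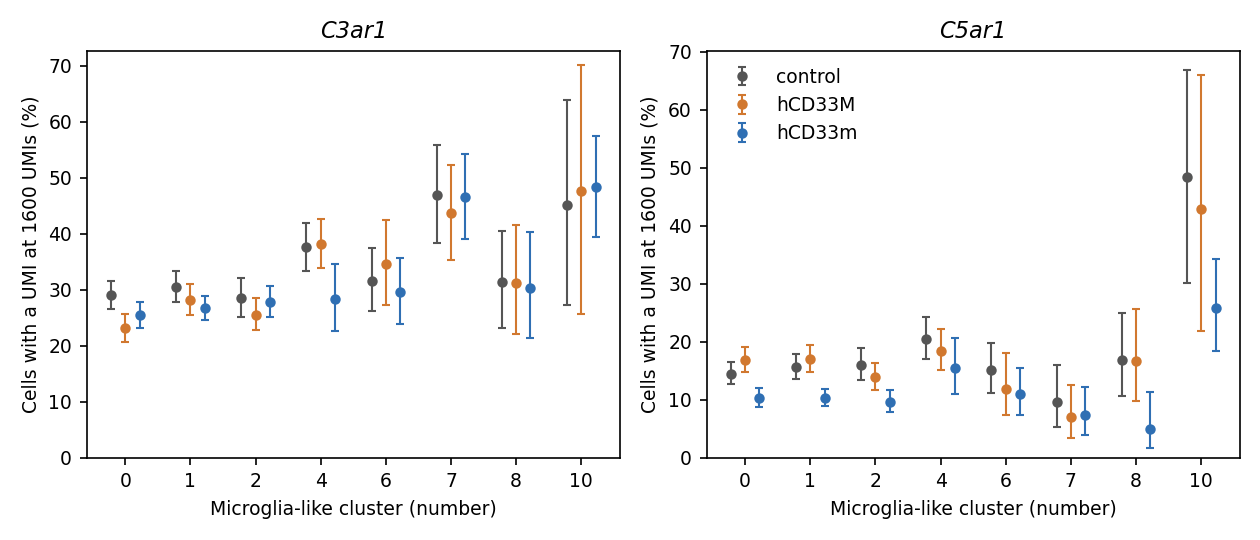
Share of cells with a C3ar1 (left) or C5ar1 (right) UMI after thinning to 1600 UMIs (%, vertical axes from 0) in each microglia-like cluster, by library. Points are shares, bars 95% Clopper-Pearson intervals. Cluster 10, led by Ccl4 and Ccl3, is high for both receptors, and cluster 7, led by Cst7, is high for C3ar1 (45.8% over libraries) and low for C5ar1 (7.93%).

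Border associated macrophage-like cells, marked by Mrc1, Pf4 and Ms4a7, carried nearly as much C1q as microglia. Summed C1q was 24106 CPM (23725 to 24492) in the control cells, close to the 24118 CPM (23743 to 24498) of hCD33M, and 21625 CPM (21375 to 21877) in those of hCD33m. The log2 ratios to the microglia-like cells of the same library were -0.18, -0.09 and -0.14, and the hCD33m level was the lowest of the 3 libraries. The chain shares over the 218 cells were 40.2% C1qa, 32.2% C1qb and 27.6% C1qc, close to those of microglia. C3ar1 was 355, 362 and 258 CPM and C5ar1 112, 129 and 101 CPM in control, hCD33M and hCD33m. In each library the C3ar1 level was thus above that of microglia. The C5ar1 intervals of the border cells (87.8 to 142, 103 to 159 and 84.5 to 120) overlapped each other. They overlapped those of the microglia-like cells in control and hCD33M. In hCD33m the border interval lay above the 76.4 CPM (73.6 to 79.3) of the microglia-like cells. After thinning, 40.8% of border cells had a C3ar1 UMI (54.4%, 44.7% and 31.8% by library) and 19.9% a C5ar1 UMI (17.5%, 12.8% and 24.3%).

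Many of these cells also carried microglial transcripts, and their part in the C1q level was examined by the microglial gene P2ry12. Of the 218 cells, 129 had at least 1000 CPM of P2ry12 and a median of 14061 UMIs, 29 had 300 to 1000 CPM, and 60 had less than 300 CPM and a median of 4005 UMIs. The cells lowest in P2ry12 had 2188 CPM of Mrc1 and still 21002 CPM (20450 to 21566) of C1q, against 741 CPM of Mrc1 and 23050 CPM of C1q in the cells highest in it. C1q in these 60 cells was 22271, 25285 and 18376 CPM in control, hCD33M and hCD33m, from 18, 10 and 32 cells. Single cells among them ranged from 257 to 43630 CPM. Some held no Mrc1 UMI, among them a control cell with 7 C1q UMIs and hCD33m cells with 9 and 1. The C3ar1 level of the 60 cells was 326 CPM (260 to 403) and their C5ar1 level 180 CPM (132 to 239), the latter above the 95.9 CPM (94.0 to 97.9) of all microglia-like cells. Whether the cells high in both markers were doublets was not tested. The summed level of the 4 dendritic cell markers in the whole border class was 23.7, 27.6 and 75.9 CPM in control, hCD33M and hCD33m. The part of other cell types in these C1q levels was not tested.

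Monocyte-like cells, marked by Plac8 and Ly6c2, mostly held little C1q. Their pooled level was 3635, 9949 and 2434 CPM in control, hCD33M and hCD33m, but the median cell held only 4, 4 and 2 C1q UMIs. Of the 84 cells, 67 had 10 or fewer C1q UMIs, 5 of them 0, and the other 17 held 95.8% of the C1q UMIs. The 13 cells with 2 or more P2ry12 UMIs had 14929 CPM of C1q, and the other 71 cells had 787 CPM (717 to 861), which is 3.08% of the microglial level. In those 71 cells the median was 3 C1q UMIs, and 3 cells with more than 50 C1q UMIs, 1 control and 2 hCD33M, held much of the total. Without these 3, the level was 394 CPM (344 to 449), or 1.54% of the microglial level. By library, C1q in the 71 cells was at 3.04%, 5.90% and 1.56% of the microglial level in control, hCD33M and hCD33m. Without the 3 cells it was at 1.52%, 1.58% and 1.56%. The spread between libraries thus lay in those cells, but they were picked by the C1q count itself, so a fall without them was built in. Tmem119, another microglial gene, was at 1.48% of its microglial level in the 71 cells (14 UMIs). The part of free RNA in this C1q level was not tested, and 3 of the 17 cells with more than 10 C1q UMIs had no P2ry12 UMI.

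Neutrophil transcripts were also present in the monocyte-like cluster. The summed level of the 5 neutrophil markers was 50332, 11994 and 7233 CPM in control, hCD33M and hCD33m, beside 10044, 6546 and 9358 CPM for the 8 monocyte markers. They came almost wholly from 3 cells, 1 in each library, with more than 100 S100a8 UMIs. Without these cells the neutrophil markers were at 0, 3.78 and 0 CPM, and the pooled C1q level was 4173, 10180 and 2477 CPM.

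C5ar1 and C3ar1 were less far below microglia than C1q was in these 71 monocyte-like cells. C3ar1 was 30.4 CPM (18.0 to 48.1, 18 UMIs in 12 cells), or 13.1% of the microglial level, and 7.57% without the 3 cells of more than 50 C1q UMIs. C5ar1 was 25.4 CPM (14.2 to 41.8, 15 UMIs in 11 cells), or 26.5%, and 17.2% (9 UMIs) without the 3 cells high in S100a8. By library, C5ar1 was 26.3, 21.8 and 26.6 CPM in control, hCD33M and hCD33m, from 3 to 7 UMIs each. At that depth the libraries could not be told apart.

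**Figure D4:**
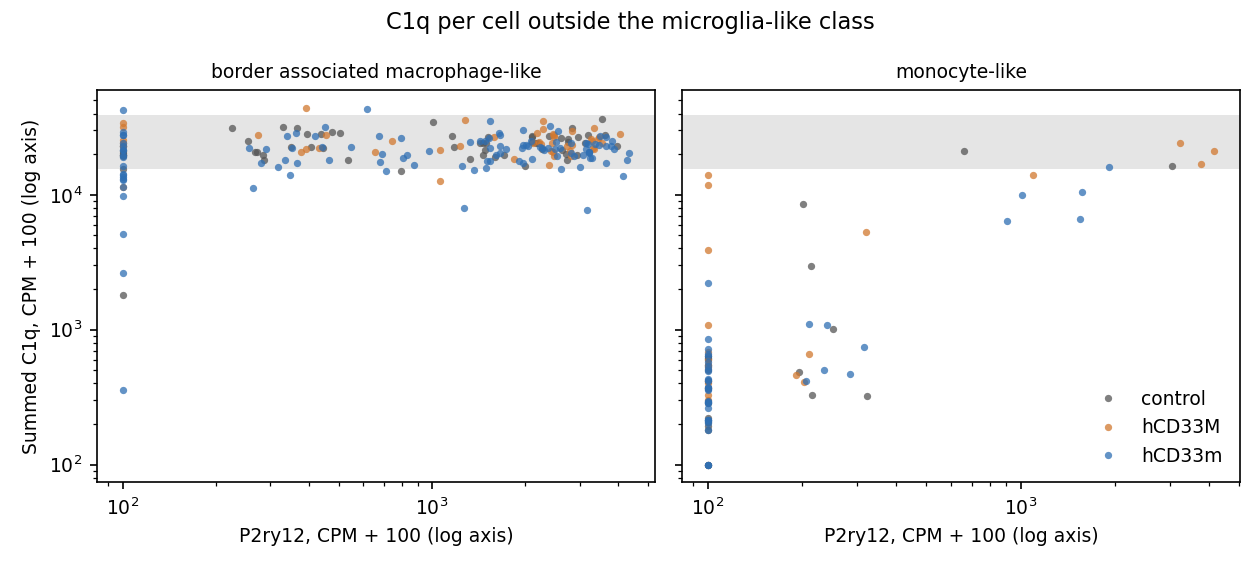
Summed C1q against P2ry12 in each border associated macrophage-like (left) and monocyte-like (right) cell, both as CPM + 100 on log axes, coloured by library. The grey band spans the 5th to 95th percentiles of microglia-like cells. Most border cells lie in or near the band whether or not they carry P2ry12, but a few without it lie far below, down to 257 CPM. Most monocyte-like cells lie far below the band, and most of those that reach it carry P2ry12.

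Other complement genes were read from a list of 48, of which 29 had a row in at least 1 table and 8 reached 20 CPM in microglia-like cells. No gene of a table was found in fewer than 3 of its cells, so a gene with no row there may be too rare to be listed. None of the 8 passed 1.5-fold in any contrast, where 0.958%, 1.16% and 0.68% of all genes did, so 0 of 8 is no result about complement genes. Their median log2 ratios were -0.03 for hCD33M and control, -0.12 for hCD33m and control and -0.07 for hCD33m and hCD33M. C5ar2, the second C5a receptor, was 110, 110 and 88.2 CPM in control, hCD33M and hCD33m, a log2 ratio of -0.32 (-0.39 to -0.24) for hCD33m against control. As for C5ar1, hCD33m was the lowest, and control and hCD33M could not be told apart. Calr (calreticulin), which can bind C1q at the cell surface, was 896, 988 and 762 CPM and was the only listed gene past a ratio of 5 to 4, between hCD33m and hCD33M (log2 ratio -0.38), where 3.3% of all genes passed. Itgam and Itgb2, which together form complement receptor 3, were 682, 680 and 673 CPM and 299, 279 and 269 CPM. Cr1l, a membrane regulator of C3 cleavage, was 158, 159 and 146 CPM, and C1qbp was 79.6, 75.5 and 82.2 CPM. Lrp1, a scavenger receptor, was 460, 378 and 448 CPM, lowest in hCD33M.

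C3, C4b, C2 and Cfp had higher levels outside the microglia-like cells. C3, the precursor of C3a, was 0.489 CPM in microglia-like cells (47 UMIs in 38 of 14009 cells) and 185 CPM in monocyte-like cells. In the latter it was 245 CPM (187 to 315) for control, 104 CPM (68.8 to 150) for hCD33M and 206 CPM (160 to 260) for hCD33m, with a UMI in 14 of 20, 12 of 23 and 26 of 41 cells. The control cell high in S100a8 held 27 of the 60 control UMIs, and without the 3 such cells C3 was 155, 98.4 and 207 CPM. C4b, the component cleaved after C1q activation, was 80.7, 98.1 and 100.1 CPM in border cells of control, hCD33M and hCD33m. In microglia-like cells C4b was 3.77, 1.2 and 2.05 CPM, and in the 60 border cells lowest in P2ry12 it was 287 CPM. C2, the partner of C4b in the classical convertase, was 22.2, 23.0 and 14.4 CPM in border cells and 0.583 CPM in microglia-like cells. Cfp, properdin of the alternative pathway, was 26.1 CPM in border, 51.4 CPM in monocyte-like and 1.16 CPM in microglia-like cells.

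**Figure D5:**
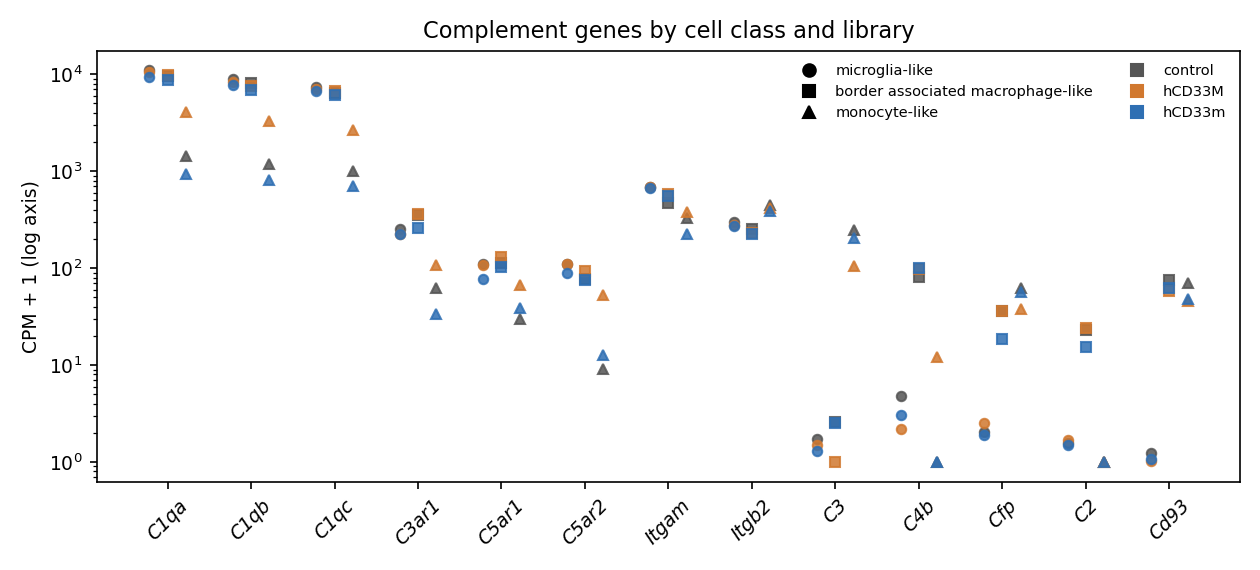
Level of complement genes (CPM + 1, log axis) in microglia-like (circles), border associated macrophage-like (squares) and monocyte-like (triangles) cells, with 1 symbol per library. C1q genes are high in microglia and border cells, C3 stands out in monocyte-like cells (104 to 245 CPM) and C4b in border cells (80.7 to 100.1 CPM).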

How the data were processed

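The authors captured cells with the 10x Genomics 3′ platform, aligned reads with Cell Ranger to mm10 and deposited raw UMI counts per gene and barcode, 1 table per library. Per the labels, Seurat was used for later steps (version not given there). The fewest cells in which a listed gene was found was 3 in each table. Cells with 200 or fewer or over 8000 genes or over 10% mitochondrial UMIs were removed here, and no doublet caller was run. This left more cells than the study states, so classes rebuilt here can differ from its clusters. Cells were scaled to 10000 UMIs and clustered on 2000 variable genes without complement, immediate early, mitochondrial and sex genes (scanpy 1.11.5, 15 components, 20 neighbours, Leiden 0.8), and named from marker lists. A cluster's leading genes had to be found in 20% of its cells, a rule chosen after seeing the data. Counts were summed per class and library and given as CPM with exact Poisson intervals, and ratios with exact conditional binomial intervals. Shares carry Clopper-Pearson intervals. With 1 library per genotype no test was run. The 5 genes and the lists were chosen with earlier results of these data known. The named genes were the 5, the listed complement genes at 20 CPM or more, and the 5 genes most like each by correlation, and C3, C4b, C2, Cfp, Malat1 and Mef2a were named after their values were seen. Positions are from GENCODE M21. Ratio and thinning steps were tested on simulated data. Scaling by TMM in edgeR 4.0.16 was an alternative. Values of 1 further listed complement gene are not reported here.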

Additional observations from a re-analysis of the deposited data

How the results depend on the processing

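Counts of the 5 genes past the rule of size stayed at 0 in each contrast under every alternative but the smaller fold. Some alternatives could not change this count. All 5 genes exceeded 50 CPM, so no minimum level and a minimum of 50 CPM leave them as they were, and a 2-fold rule is stricter. At a ratio of 5 to 4, 1 of them (C5ar1) passed in hCD33m against control and 1 in hCD33m against hCD33M, and 1 listed gene (Calr) passed in the latter. Of all genes, 6.27% and 3.3% passed in these contrasts. With no minimum level, 2 listed genes passed between hCD33M and control, 5 between hCD33m and control and 3 between the transgenic libraries, all at levels under 20 CPM, while 4.99%, 5.98% and 4.48% of all genes passed. The sign of the ratios of the 5 genes was kept in all 150 values from 10 alternatives (cell filters, cluster resolution, scaling, per-cell means), with a largest shift of 0.08 on the log2 scale, and C5ar1 in hCD33m against control ranged from -0.57 to -0.49. In 30 of the 150 the value lay outside the counting interval of the main ratio. With no filter on cells the median C1qa share moved to 40.6% in control and 41.2% in hCD33M, and with all kept cells to 41.1% in hCD33M. Taking cells by 3 or more Mrc1 or Plac8 UMIs in place of clusters gave log2 ratios of C1q to microglia of -0.15, -0.068 and -0.080 for border cells and -2.23, -1.22 and -2.35 for monocytes in control, hCD33M and hCD33m, beside -2.91, -1.37 and -3.29 with clusters. Border cells under 1000 CPM of P2ry12 (26, 16 and 47 cells), a wider set than those under 300 CPM and chosen after seeing the data, gave -0.24 in control, -0.10 in hCD33M and -0.27 in hCD33m, beside -0.18, -0.09 and -0.14. Monocyte-like cells with 0 or 1 P2ry12 UMI, also chosen after seeing the data, gave -5.04, -4.08 and -6.00, so the size of that difference depends on the mixed cells. Leaving out the cells high in S100a8, added likewise, gave -2.71 in control. Thinning to 2500 UMIs moved the log2 ratio of C5ar1 shares of hCD33m to control from -0.58 to -0.41. The cause of these shifts was not tested. No paired analysis was possible because each genotype had 1 library. The monocyte-like class has 20 to 41 cells per library, which limits every receptor value in it.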

Other observations

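Cells left unnamed carried C1q as well, at 21662 CPM for control, 23703 CPM for hCD33M and 23510 CPM for hCD33m over 3358 cells, an order that differs from that of the microglia-like cells. These cells mix clusters in unequal shares. In the largest, 1939 cells led by mitochondrial genes, C1q was 32760, 30610 and 28068 CPM in control, hCD33M and hCD33m. In the next, 1370 cells led by Gm26917 and AY036118, of which 703 were control, 463 hCD33M and 204 hCD33m, it was 6224, 6482 and 6108 CPM. C5ar1 in the first of these was 211 CPM (179 to 247), 187 CPM (159 to 218) and 100.04 CPM (76.0 to 129). There hCD33m was again the lowest. In the Gm26917 cluster, C5ar1 was 19.6 CPM (9.78 to 35.1), 22.8 CPM (9.85 to 44.9) and 33.5 CPM (10.9 to 78.1). In the remaining 49 cells it was highest in the 9 hCD33m cells, at 214 CPM (44.1 to 625). Control there had 71.2 CPM (14.7 to 208), and the hCD33M interval was 0.836 to 184 CPM. Thus hCD33m was the highest in both, but the intervals overlapped.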
